A study of Homo sapiens with 24 samples.

Results

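NF-kappaB cytokine, chemokine and feedback genes were followed in HS578T, SUM149PT and SUM159PT, which are established human lines from breast cancers. The set was a named list of 37 genes, 23 that encode secreted factors and 14 that encode intracellular or cell-surface proteins. Each gene was measured by its probe set of highest mean over all 24 arrays. Of the 37, 35 were found among the 19775 genes named in the array annotation, and CSF2 and BIRC3 were not analysed here. A further 3 genes, CXCL5, CXCL14 and CCL2, fell below the filter on low values, set at the 40th percentile of mean log2 signals, and are described by signal only, so 32 of 14127 tested genes were members of the set. CXCL6 and CSF3 passed that filter only through the SUM149PT arrays of the inhibitor experiment, so differences of these genes against that group had to exist, and counts are also given for the other 30. Over the HS578T and SUM159PT arrays alone, IL1A, TNF and LCN2 also lay below the filter. Their differences between SUM149PT and the other lines had to exist too, and they remain among the 30.

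The study asked whether MCT1, a plasma membrane transporter of lactate and pyruvate, contributes to the glycolytic state of such lines. In the inhibitor experiment each line was given AZD3965, an MCT1 inhibitor, or its vehicle DMSO for 24 hours. In the shRNA experiment SUM149PT cells were infected with lentivirus carrying an shRNA against MCT1 or a scrambled shRNA and selected for 5 days in puromycin at 2 µg/ml. There were 8 groups of 3 arrays. HS578T was grown in DMEM with 10% serum, and SUM149PT and SUM159PT in F12 medium with 10% serum, insulin and hydrocortisone at 10 µg/ml each and EGF at 10 ng/ml. Whether the 3 arrays of a group were from separate cultures is not stated, so the p-values reflect array-to-array spread alone, possibly technical.

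NF-kappaB is a family of transcription factors that inhibitor proteins such as IκBα hold in the cytoplasm. Signals from the interleukin-1, tumour necrosis factor and Toll-like receptors activate a kinase complex that removes the inhibitor, and the factor then switches on chemokines, cytokines and adhesion molecules. Several of its targets, among them NFKBIA and TNFAIP3, encode proteins that shut the pathway off again. Basal-like breast cancer lines are known for making interleukin-6 and interleukin-8 without outside stimulation.

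The deposited values were linear array signals, scaled by the authors to a trimmed mean of 500.1 on every array, and medians of arrays lay between 49.2 and 67.4. In each group of 3 arrays, the number of arrays limits the precision. The third scramble array stood apart in RNA quality. Its ratio of 3′ to 5′ actin control signal was 53.8, against 1.20 to 2.14 on the other 23 arrays, and its GAPDH ratio was 2.35, against 0.798 to 0.948. Members called in the MCT1 shRNA comparisons and the count of members in scramble minus DMSO are therefore also given without it. Most other values from the scramble group include it. The targeted gene was not checked here. Of 10 measured leukocyte markers, PTPRC, which encodes the pan-leukocyte protein CD45, averaged 39.0 in HS578T, 11.4 in SUM149PT and 23.7 in SUM159PT under DMSO. Others varied by line: CORO1A averaged 128 in HS578T, 1041 in SUM149PT and 93.8 in SUM159PT, CD14 34.2 in HS578T, 389 in SUM149PT and 22.2 in SUM159PT, and LAPTM5 55.3 in HS578T, 208 in SUM149PT and 1085 in SUM159PT.

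Several members carry NF-kappaB sites close to their transcription start. The 120 bases upstream of the start are shown for the 3 GRO chemokines CXCL1, CXCL2 and CXCL3, close relatives whose levels differed by unequal amounts, and for CXCL8, CCL20, IL6 and NFKBIA, which show the spread of sites among members of other roles. Sequences are from RefSeq, build GRCh38.p14, read in the direction of transcription. Capitals mark the core GGAATTTCC or a match to the NF-kappaB consensus on either strand, and overlapping matches are merged.
CXCL1 (chr4:73869273-73869392, plus strand): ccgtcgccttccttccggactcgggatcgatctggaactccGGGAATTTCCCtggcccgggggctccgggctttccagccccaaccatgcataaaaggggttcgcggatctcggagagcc
CXCL2 (chr4:74099196-74099315, minus strand): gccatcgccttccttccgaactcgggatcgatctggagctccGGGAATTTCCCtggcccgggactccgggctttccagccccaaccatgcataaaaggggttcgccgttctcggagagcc
CXCL3 (chr4:74038690-74038809, minus strand): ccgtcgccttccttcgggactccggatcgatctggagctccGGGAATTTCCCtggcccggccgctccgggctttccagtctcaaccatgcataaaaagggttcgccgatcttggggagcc
CXCL8 (chr4:73740449-73740568, plus strand): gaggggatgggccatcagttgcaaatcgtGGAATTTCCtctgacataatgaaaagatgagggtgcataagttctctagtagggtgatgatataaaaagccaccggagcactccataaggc
CCL20 (chr2:227813722-227813841, plus strand): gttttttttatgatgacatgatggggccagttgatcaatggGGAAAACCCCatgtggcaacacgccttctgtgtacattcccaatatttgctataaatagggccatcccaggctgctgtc
IL6 (chr7:22727080-22727199, plus strand): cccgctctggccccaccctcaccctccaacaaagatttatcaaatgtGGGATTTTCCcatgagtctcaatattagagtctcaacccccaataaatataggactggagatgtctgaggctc
NFKBIA (chr14:35404750-35404869, minus strand): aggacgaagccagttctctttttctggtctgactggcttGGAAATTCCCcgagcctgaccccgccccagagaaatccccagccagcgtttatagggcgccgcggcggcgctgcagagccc
The CXCL1 and CXCL3 stretches were identical at 109 of 120 bases, and CXCL1 and CXCL2 at 81 of 120, without gaps. The match GGGAATTTCC lay at -79 to -70 from the start in CXCL1 and CXCL3 and at -78 to -69 in CXCL2. Without gaps, part of the CXCL2 stretch is therefore out of register, and its count understates the likeness of the letters. CXCL1 and CXCL8 matched at 38 of 120. In windows from 250 bases before to 50 bases after the start, the core was found in 12 of the 30 members with an entry (40%), against 153 of 27305 genes in all (0.560%). The consensus was found in 17 of the 30 (56.7%), against 1937 of the 27305 (7.09%). The 17 include BIRC3, whose signal was not analysed here. The 12 with the core were CXCL1, CXCL2, CXCL3, CXCL5, CXCL6, CXCL8, TSLP, NFKBIA, NFKBIZ, NFKB1, ICAM1 and TNFRSF9. These matches describe letters in the window, and binding was not measured.

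Under DMSO, most of the set was higher in SUM149PT than in either other line. The mean signal was highest in SUM149PT for 26 of the 35 measured members, in HS578T for 5 (CCL2, IL11, TSLP, CSF1 and TNFRSF9) and in SUM159PT for 4 (CXCL14, CCL5, NFKB1 and CD83). It was highest in SUM149PT for 16 of 22 secreted factors and 10 of 13 intracellular or surface genes. For HS578T minus SUM149PT, 24 of 32 tested members were lower and 2 higher, with a median log2 difference of -2.47, against -0.02 over all genes. At the same threshold, an adjusted p under 0.05, 34.0 percent of all tested genes were lower and 30.5 percent higher. For SUM149PT minus SUM159PT, 26 members were higher and 1 lower with a median of 3.28, against a background of 30.1 percent higher and 29.5 percent lower. HS578T against SUM159PT split evenly, 10 members higher and 10 lower, where 27.4 percent of all genes were higher and 30.8 percent lower. Without CXCL6 and CSF3 the counts were 22 lower and 2 higher of 30, 24 higher and 1 lower, and 10 higher and 9 lower. The medians include both genes. IL1A, TNF and LCN2, which passed the filter only through SUM149PT, are still among the 30. Groups did not overlap, in either direction, for 69.4 percent of all genes between HS578T and SUM149PT, 64.1 percent between HS578T and SUM159PT and 65.2 percent between SUM149PT and SUM159PT. The largest adjusted p among members past the threshold was 0.000791, 0.0400 and 0.000233 in the comparisons of HS578T with SUM149PT, HS578T with SUM159PT and SUM149PT with SUM159PT. These 3 comparisons share their DMSO arrays, and for HS578T against the SUM lines, line and medium cannot be told apart. In these cultures, fewer cells of a kind and less RNA per cell cannot be told apart.

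**Figure D1:**
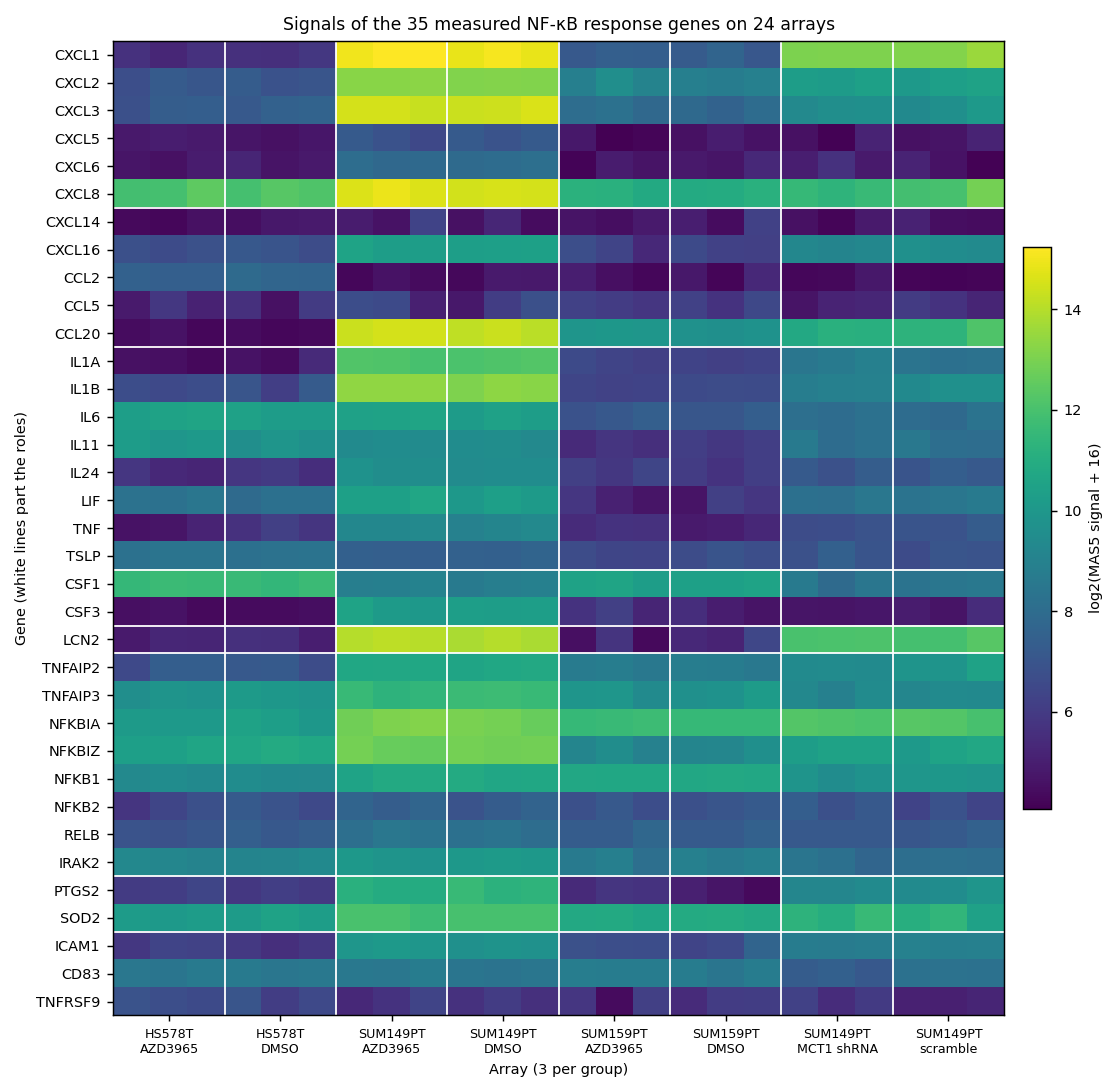
Signals of the 35 measured members as log2(signal + 16) on all 24 arrays, with 3 arrays per group along the x axis and genes, grouped by role, along the y axis. The 6 SUM149PT arrays of the inhibitor experiment are brightest for most chemokines and interleukins, and the 6 SUM149PT arrays of the shRNA experiment are dimmer for most of the same genes.

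The ELR chemokines, which draw neutrophils through the receptors CXCR1 and CXCR2, held some of the steepest differences. CXCL1 (probe set 204470_at) gave signals of 32.2, 31.7 and 42.1 in HS578T, 30196, 34437 and 29654 in SUM149PT and 137, 188 and 119.7 in SUM159PT. No array of one line overlapped another, and the SUM149PT mean was 212 times the SUM159PT mean. The HS578T signals lay below the median of every array, so no ratio is given against them. Tests used log2(signal + 16), and where a group lies near or below 16 the size of a log2 difference is set in part by that offset. On this scale the CXCL1 difference was -9.26 ± 0.14, adjusted p = 6.46e-24 for HS578T minus SUM149PT in limma, with its standard error, and 7.60 ± 0.14, adjusted p = 3.07e-22 for SUM149PT minus SUM159PT. HS578T minus SUM159PT gave -1.66 ± 0.14. CXCL3 (207850_at) had 128, 169 and 182 in HS578T, 20924, 21268 and 25164 in SUM149PT and 218, 176 and 243 in SUM159PT. HS578T and SUM159PT overlapped here (-0.38 ± 0.17, adjusted p = 0.0668), and both lay far below SUM149PT (-7.01 ± 0.17 for HS578T minus SUM149PT and 6.63 ± 0.17 for SUM149PT minus SUM159PT). CXCL2 followed the same order as CXCL1, with 118 ± 22.2 in HS578T, 9049 ± 137 in SUM149PT and 444 ± 30.7 in SUM159PT (mean ± SD, n = 3 each). Its differences were -6.09 ± 0.15 for HS578T minus SUM149PT, -1.79 ± 0.15 for HS578T minus SUM159PT and 4.30 ± 0.15 for SUM149PT minus SUM159PT. Its probe set and those of CXCL8 and CXCL5 carry the suffix _x_at, which marks sets with probes that can match other transcripts.

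CXCL8, which encodes interleukin-8, stood far above the offset in all 3 lines. Its signals (202859_x_at) were 3899, 5107 and 4585 in HS578T, 23019, 24179 and 23459 in SUM149PT and 1903, 1933 and 2249 in SUM159PT, without overlap between lines. The difference was -2.38 ± 0.19, adjusted p = 8.75e-11 for HS578T minus SUM149PT, 1.15 ± 0.19, adjusted p = 1.4e-05 for HS578T minus SUM159PT and 3.53 ± 0.19, adjusted p = 8.44e-14 for SUM149PT minus SUM159PT. A second CXCL8 probe set gave the same order of lines. CXCL5 and CXCL6, both ligands of CXCR2, were seen in SUM149PT and near the offset of 16 elsewhere. The 2 other CXCL5 probe sets averaged 39.5 and 14.2 in SUM149PT. CXCL5 averaged 9.11 ± 1.31 in HS578T, 124 ± 16.3 in SUM149PT and 10.4 ± 4.34 in SUM159PT, and CXCL6 averaged 13.8 ± 6.28 in HS578T, 244 ± 19.5 in SUM149PT and 15.5 ± 7.98 in SUM159PT. CXCL6 differed by -3.14 ± 0.29 for HS578T minus SUM149PT and 3.07 ± 0.29 for SUM149PT minus SUM159PT. Apart from CXCL6, which passed the filter only through SUM149PT, all 4 tested ELR chemokines were lower in HS578T than in SUM149PT (largest adjusted p = 8.75e-11) and higher in SUM149PT than in SUM159PT (largest adjusted p = 8.44e-14).

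The other chemokines split by line. CCL20, the ligand of CCR6, was at background in HS578T with 5.61, 2.81 and 3.95, high in SUM149PT with 18283, 21025 and 17216, and intermediate in SUM159PT with 823, 777 and 839. None of the lines overlapped, and since the HS578T signals lay below 16, the differences against HS578T depend on the offset (-9.87 ± 0.16, adjusted p = 1.48e-23 for HS578T minus SUM149PT, -5.37 ± 0.16, adjusted p = 1.87e-18 for HS578T minus SUM159PT, 4.50 ± 0.16, adjusted p = 3.66e-17 for SUM149PT minus SUM159PT). CXCL16, a transmembrane chemokine that binds CXCR6, averaged 105 ± 19.1 in HS578T, 1304 ± 39.97 in SUM149PT and 64.3 ± 12.1 in SUM159PT. Its differences were -3.45 ± 0.22 for HS578T minus SUM149PT, 0.59 ± 0.22, adjusted p = 0.0227 for HS578T minus SUM159PT and 4.05 ± 0.22 for SUM149PT minus SUM159PT. CCL2, the monocyte attractant MCP-1, ran the other way. It had 226, 192 and 186 in HS578T, 3.79, 12.8 and 11.8 in SUM149PT and 11.4, 2.25 and 24.9 in SUM159PT, so that only the HS578T arrays stood above background, and it was not tested. CCL5, which draws T cells and monocytes, scattered widely within each line, with 32.1, 7.42 and 47.4 in HS578T, 11.4, 52.6 and 93.1 in SUM149PT and 57.5, 35.3 and 73.9 in SUM159PT, and passed in no comparison of lines. CXCL14, a chemokine of normal epithelium, stayed between 5.31 and 58.2 on the 9 DMSO arrays.

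The interleukin-1 genes were nearly confined to SUM149PT by signal. IL1A and TNF passed the filter only through SUM149PT, so their differences against that line had to exist. IL1A had 8.38, 4.75 and 26.4 in HS578T, 4299.7, 4623 and 4813 in SUM149PT and 61.9, 56.1 and 63.3 in SUM159PT. IL1B had 114, 53.3 and 140.2 in HS578T, 8707, 10248 and 9703 in SUM149PT and 77.4, 83.7 and 81.7 in SUM159PT. HS578T and SUM159PT overlapped for IL1B (0.21 ± 0.18, adjusted p = 0.337) but not for IL1A (-1.46 ± 0.19, adjusted p = 5.34e-07). Against SUM149PT, HS578T was lower by log2 differences of -7.37 ± 0.19, adjusted p = 7.67e-20 for IL1A and -6.41 ± 0.18, adjusted p = 3.13e-19 for IL1B, and SUM149PT minus SUM159PT gave 5.91 ± 0.19 for IL1A and 6.62 ± 0.18 for IL1B. A second IL1B probe set gave -6.01 ± 0.16 for HS578T minus SUM149PT and 6.71 ± 0.16 for SUM149PT minus SUM159PT, while a second IL1A probe set gave no called difference between lines. TNF, the gene of tumour necrosis factor, averaged 43.1 ± 11.3 in HS578T, 556 ± 68.0 in SUM149PT and 16.8 ± 5.41 in SUM159PT. Its differences were -3.29 ± 0.20 for HS578T minus SUM149PT, 0.84 ± 0.20, adjusted p = 0.000678 for HS578T minus SUM159PT and 4.13 ± 0.20 for SUM149PT minus SUM159PT.

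IL6 and IL11, both of the interleukin-6 family, had a different order, with HS578T and SUM149PT together and SUM159PT low. IL6 gave 1373, 1188 and 1201 in HS578T, 1158, 1371 and 1239 in SUM149PT and 114, 116 and 155 in SUM159PT. The first 2 lines overlapped (-0.00 ± 0.14, adjusted p = 0.992, 95% interval -0.29 to 0.28), and both lay about equally far above SUM159PT (3.14 ± 0.14, adjusted p = 2.4e-15 for HS578T minus SUM159PT and 3.14 ± 0.14, adjusted p = 1.96e-15 for SUM149PT minus SUM159PT). IL11, which signals through the same gp130 subunit, had 822 ± 92.3 in HS578T, 684 ± 50.8 in SUM149PT and 49.7 ± 6.74 in SUM159PT. It likewise did not pass between HS578T and SUM149PT (0.26 ± 0.15, adjusted p = 0.150) and differed by 3.67 ± 0.15 for HS578T minus SUM159PT and 3.42 ± 0.15 for SUM149PT minus SUM159PT. LIF, the leukaemia inhibitory factor of the same family, was highest in SUM149PT, with 258 ± 26.9 in HS578T, 1145 ± 151 in SUM149PT and 35.1 ± 24.1 in SUM159PT (-2.08 ± 0.28 for HS578T minus SUM149PT, 2.55 ± 0.28 for HS578T minus SUM159PT and 4.63 ± 0.28 for SUM149PT minus SUM159PT). IL24, an interleukin-10 family cytokine, averaged 38.4 ± 8.21 in HS578T, 696 ± 20.5 in SUM149PT and 46.2 ± 9.37 in SUM159PT, and differed by -3.72 ± 0.20 for HS578T minus SUM149PT and 3.53 ± 0.20 for SUM149PT minus SUM159PT. TSLP, an epithelial cytokine that acts on dendritic cells, was highest in HS578T with 287 ± 14.2, against 173 ± 12.4 in SUM149PT and 94.3 ± 11.6 in SUM159PT (0.68 ± 0.16, adjusted p = 0.000791 for HS578T minus SUM149PT, 1.46 ± 0.16 for HS578T minus SUM159PT, 0.78 ± 0.16 for SUM149PT minus SUM159PT).

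The colony stimulating factors went opposite ways. CSF1, the growth factor of macrophages, was the one member lower in SUM149PT than in both other lines by the test. It had 3154, 2802 and 3246 in HS578T, 375, 439 and 465 in SUM149PT and 1367, 1367 and 1474 in SUM159PT, without overlap (2.80 ± 0.13, adjusted p = 4.82e-15 for HS578T minus SUM149PT, 1.12 ± 0.13, adjusted p = 1.04e-07 for HS578T minus SUM159PT, -1.69 ± 0.13, adjusted p = 8.48e-11 for SUM149PT minus SUM159PT). CSF3, the granulocyte factor G-CSF, had 4.76, 4.57 and 6.25 in HS578T, 1283, 1240.0 and 1263 in SUM149PT and 29.4, 14.6 and 9.25 in SUM159PT, so that it stood far above the offset in SUM149PT and at or near it in the other lines (-5.92 ± 0.26 for HS578T minus SUM149PT, -0.63 ± 0.26 for HS578T minus SUM159PT and 5.29 ± 0.26 for SUM149PT minus SUM159PT). LCN2, which encodes the iron-siderophore binding protein lipocalin-2, had 33.2, 31.4 and 15.7 in HS578T, 14323, 16289.7 and 14506 in SUM149PT and 24.7, 19.8 and 70.3 in SUM159PT. LCN2 also passed the filter only through SUM149PT. It differed by -8.49 ± 0.28, adjusted p = 8.73e-18 for HS578T minus SUM149PT and 8.23 ± 0.28, adjusted p = 2.03e-17 for SUM149PT minus SUM159PT, and the 2 low lines overlapped (-0.26 ± 0.28, adjusted p = 0.468).

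**Figure D2:**
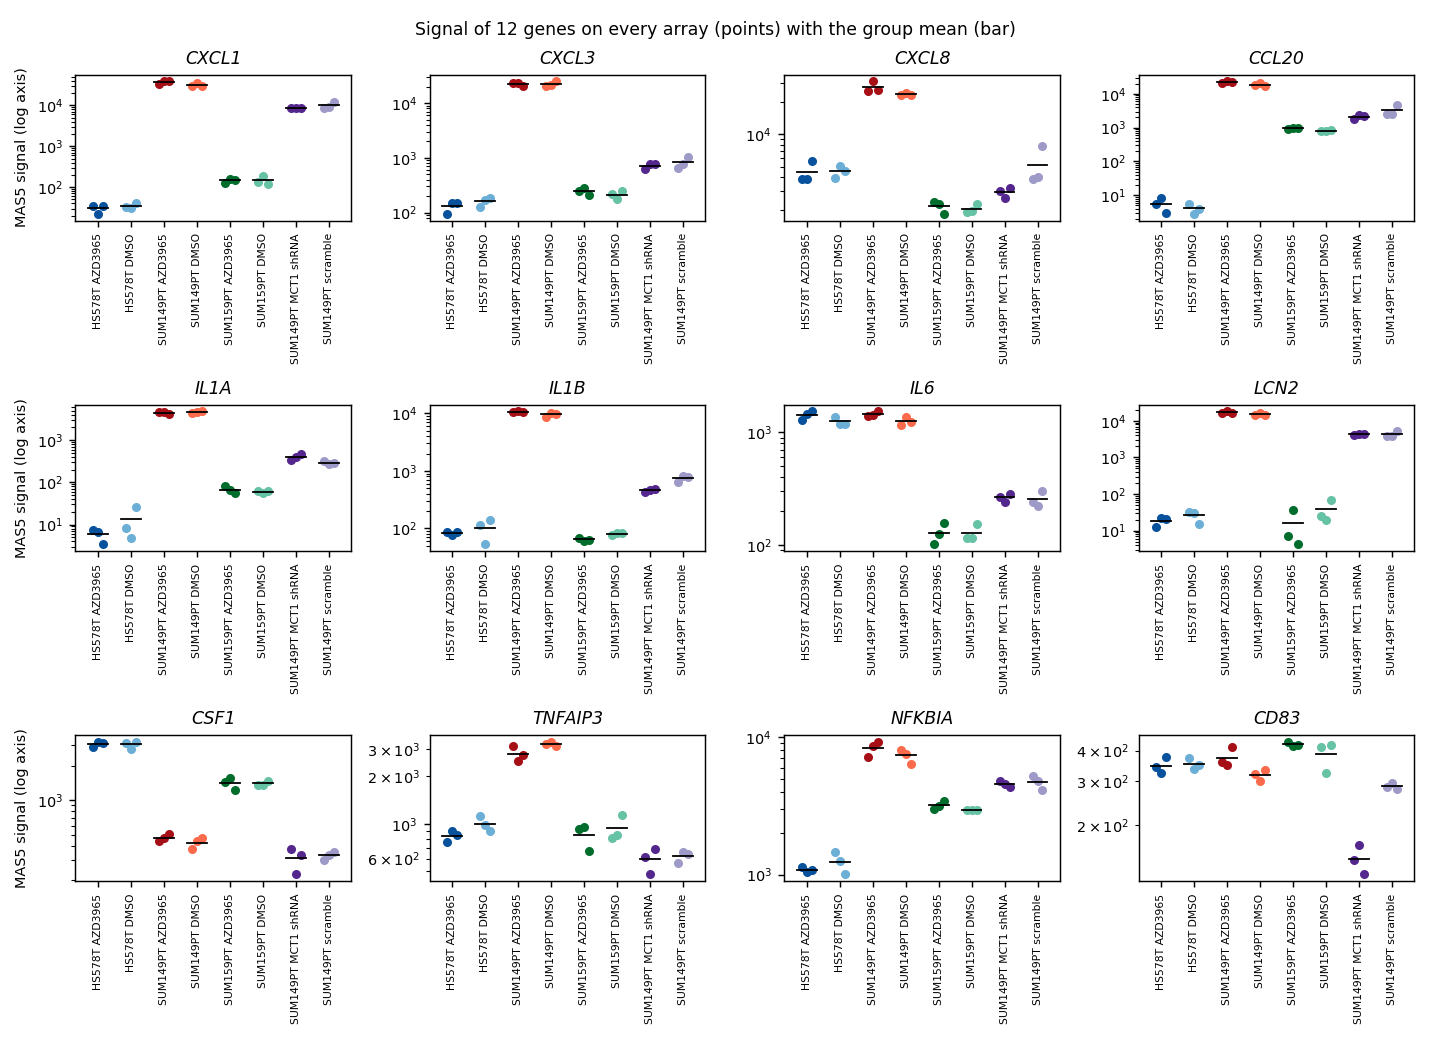
Signal of 12 members on each array (points, log axis with its own range in each panel) with the group mean as a bar, for the 8 groups along the x axis. CXCL1, CXCL3, CCL20, IL1A, IL1B and LCN2 are highest on the 6 SUM149PT arrays of the inhibitor experiment, and CSF1 is highest in HS578T. IL6 is alike in HS578T and the SUM149PT arrays of the inhibitor experiment and lower on those of the shRNA experiment. CD83 is lowest on the 3 MCT1 shRNA arrays.

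Of 8 tested feedback genes and subunits, 7 were lower in HS578T than in SUM149PT and 6 were higher in SUM149PT than in SUM159PT, with none called the other way. Of all tested genes, 34.0 percent were lower in the first comparison and 30.1 percent higher in the second, with medians of -0.02 in each. The median of the 8 was -1.52 for HS578T minus SUM149PT and 1.25 for SUM149PT minus SUM159PT. Over 19 secreted members, with CXCL6 and CSF3 included, the medians were -3.45 for HS578T minus SUM149PT and 4.13 for SUM149PT minus SUM159PT. The difference between the feedback and the secreted genes was not tested. NFKBIA, the gene of IκBα, had 1449.6, 1263 and 1006 in HS578T, 8089.9, 7596 and 6368 in SUM149PT and 2960.4, 2969 and 2959.8 in SUM159PT, without overlap (-2.56 ± 0.11, adjusted p = 2.09e-15 for HS578T minus SUM149PT, -1.26 ± 0.11, adjusted p = 1.46e-09 for HS578T minus SUM159PT, 1.30 ± 0.11, adjusted p = 7.81e-10 for SUM149PT minus SUM159PT). A second NFKBIA probe set had no called difference between lines. TNFAIP3, which encodes the ubiquitin-editing enzyme A20, had 1122, 987 and 899 in HS578T, 3242, 3338 and 3122 in SUM149PT and 808, 851 and 1141 in SUM159PT. HS578T and SUM159PT overlapped (0.11 ± 0.14, adjusted p = 0.537), and SUM149PT stood above both (-1.68 ± 0.14 for HS578T minus SUM149PT and 1.79 ± 0.14 for SUM149PT minus SUM159PT). NFKBIZ, an inducible nuclear IκB protein, averaged 1720.5 ± 162 in HS578T, 7464 ± 173 in SUM149PT and 632 ± 116 in SUM159PT (-2.11 ± 0.15 for HS578T minus SUM149PT, 1.43 ± 0.15 for HS578T minus SUM159PT and 3.54 ± 0.15 for SUM149PT minus SUM159PT). TNFAIP2, a TNF-induced protein, averaged 117 ± 27.0 in HS578T, 1662 ± 132 in SUM149PT and 399 ± 42.2 in SUM159PT, with differences of -3.68 ± 0.20 for HS578T minus SUM149PT, -1.66 ± 0.20 for HS578T minus SUM159PT and 2.02 ± 0.20 for SUM149PT minus SUM159PT. IRAK2, a kinase of interleukin-1 receptor signalling, averaged 571 ± 57.3 in HS578T, 1055 ± 49.7 in SUM149PT and 448 ± 35.8 in SUM159PT, and was lower in HS578T than in SUM149PT (-0.87 ± 0.16, adjusted p = 3.68e-05) and higher in SUM149PT than in SUM159PT (1.21 ± 0.16, adjusted p = 4.68e-07).

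The subunits of the factor itself differed in their pattern. NFKB1, which encodes p105 and p50, overlapped between SUM149PT and SUM159PT, with 1877, 1611 and 1689 in SUM149PT and 1705, 1772 and 1734 in SUM159PT (-0.01 ± 0.09, adjusted p = 0.923, 95% interval -0.20 to 0.18). HS578T had 715, 653 and 617 and was lower than both (-1.36 ± 0.09 for HS578T minus SUM149PT and -1.37 ± 0.09 for HS578T minus SUM159PT). RELB averaged 143 ± 17.8 in HS578T, 275 ± 24.3 in SUM149PT and 144 ± 20.2 in SUM159PT (-0.88 ± 0.16, adjusted p = 5.1e-05 for HS578T minus SUM149PT, 0.87 ± 0.16, adjusted p = 6.68e-05 for SUM149PT minus SUM159PT), and HS578T and SUM159PT differed by -0.01 ± 0.16. NFKB2, which encodes p100 and p52, averaged 105 ± 29.4 in HS578T, 143 ± 37.7 in SUM149PT and 112 ± 19.1 in SUM159PT and passed in none of the comparisons.

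Among enzymes and surface proteins, PTGS2 had the largest range. This gene of cyclooxygenase-2, which makes prostaglandins, had 42.2, 54.8 and 44.8 in HS578T, 3065, 2434 and 2534 in SUM149PT and 17.1, 9.47 and 4.10 in SUM159PT. No line overlapped another (-5.41 ± 0.17 for HS578T minus SUM149PT, 1.29 ± 0.17 for HS578T minus SUM159PT, 6.71 ± 0.17 for SUM149PT minus SUM159PT, largest adjusted p = 7.64e-07). SOD2, mitochondrial superoxide dismutase, averaged 1289 ± 146 in HS578T, 4039 ± 40.3 in SUM149PT and 1868 ± 86.0 in SUM159PT (-1.64 ± 0.16 for HS578T minus SUM149PT, -0.53 ± 0.16 for HS578T minus SUM159PT and 1.11 ± 0.16 for SUM149PT minus SUM159PT). Its other probe sets are annotated to several genes and were not used. ICAM1, the ligand of leukocyte integrins, averaged 39.0 ± 6.86 in HS578T, 837 ± 37.9 in SUM149PT and 109 ± 67.3 in SUM159PT (-3.96 ± 0.22 for HS578T minus SUM149PT, -1.07 ± 0.22 for HS578T minus SUM159PT and 2.89 ± 0.22 for SUM149PT minus SUM159PT). CD83, known from mature dendritic cells, had 353 ± 18.9 in HS578T, 319.6 ± 16.6 in SUM149PT and 386 ± 52.9 in SUM159PT, and TNFRSF9, the costimulatory receptor 4-1BB, had 80.5 ± 30.6 in HS578T, 38.8 ± 9.80 in SUM149PT and 43.6 ± 14.0 in SUM159PT. Neither passed between any pair of lines, and their smallest adjusted p was 0.0653.

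Other genes of the pathway, in lists chosen with earlier results of these data known, showed where the lines differed upstream and downstream. Of 20 tested further NF-kappaB targets, 15 were lower and 4 higher in HS578T than in SUM149PT, and 15 were higher and 1 lower in SUM149PT than in SUM159PT. The 4 of smallest p in the first comparison were IL18 (-7.08 ± 0.14), the survival gene BCL2A1 (-5.74 ± 0.21), the gelatinase gene MMP9 (-3.65 ± 0.15) and G0S2 (-4.35 ± 0.18). In the second they were G0S2 (7.91 ± 0.18), the urokinase gene PLAU (3.77 ± 0.10), IL33 (6.46 ± 0.25) and BCL2A1 (5.37 ± 0.21). BCL2A1 and IL33 passed the filter only through SUM149PT, so their differences against that line had to exist, with sizes set in part by the offset. These counts stand beside the shares of all genes given above, 34.0 percent lower and 30.5 percent higher for HS578T minus SUM149PT, and 30.1 percent higher and 29.5 percent lower for SUM149PT minus SUM159PT. The list called receptors and kinases here, which also held adaptors and the subunit genes RELA and REL, went both ways. Of 22 tested, 11 were lower and 4 higher in HS578T than in SUM149PT, and 8 were higher and 5 lower in SUM149PT than in SUM159PT. The interleukin-1 receptor gene IL1R1 was higher in HS578T than in SUM149PT (2.48 ± 0.11) and lower in SUM149PT than in SUM159PT (-2.84 ± 0.11), opposite to IL1A and IL1B. TLR4 was also lower in the second comparison (-2.94 ± 0.19). The receptor-proximal kinase IRAK1 (-1.67 ± 0.08 and 1.45 ± 0.08) and the subunit gene REL in the second comparison (1.44 ± 0.13) ran with IL1A and IL1B.

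The list of ligand receptors, which also held the antagonist gene IL1RN, went both ways. It is to be read against the same shares of all genes. Of 16 tested, 8 were lower and 3 higher in HS578T than in SUM149PT, and 6 were lower and 3 higher in SUM149PT than in SUM159PT. LIFR, the LIF receptor, was higher in HS578T than in SUM149PT (5.31 ± 0.19) and lower in SUM149PT than in SUM159PT (-5.75 ± 0.19). IL6ST, which encodes gp130, went the same way (1.35 ± 0.09 and -1.60 ± 0.09), and IL1RN, the interleukin-1 receptor antagonist, the other way (-3.43 ± 0.25 and 3.43 ± 0.25). IL1RN passed the filter only through SUM149PT, so its differences against that line had to exist. Cell-type markers differed between the lines: 9 of 10 epithelial markers were lower and 1 higher in HS578T than in SUM149PT, and all 10 were higher in SUM149PT than in SUM159PT. Their summed signal was 7824 to 8156 in HS578T, 57475 to 60101 in SUM149PT and 9503 to 11421 in SUM159PT under DMSO. All 11 mesenchymal markers were higher in HS578T than in SUM149PT, with sums of 140551 to 147323 in HS578T, 38536 to 42145 in SUM149PT and 96149 to 103121 in SUM159PT. Between SUM149PT and SUM159PT they went both ways by value. CDH11 (1781 against 137), FN1 (20367 against 16757) and TWIST1 (1338 against 1213) averaged higher in SUM149PT, and the others averaged higher in SUM159PT. The 10 measured leukocyte markers summed to 386 to 519 in HS578T, 1852 to 2008 in SUM149PT and 1360 to 1699 in SUM159PT. Of 10 glucocorticoid-induced genes, 5 were lower and 4 higher in HS578T, grown without hydrocortisone, than in SUM149PT. FKBP5 was lower in HS578T than in SUM149PT (-3.83 ± 0.08), and 8 of the 10 genes were lower and 1 higher in SUM149PT than in SUM159PT, which share their medium. The part of cell type and medium in the members' differences was not tested.

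Between the 2 experiments the same line gave very different levels. This comparison, scramble shRNA minus DMSO in SUM149PT, was added after the values were seen. Of 32 tested members, 29 were lower in scramble cells and 0 were higher, with a median log2 difference of -1.75, against -0.01 over all genes. Among all tested genes 15.5 percent were lower and 17.8 percent higher. Without CXCL6 and CSF3 the count was 27 of 30, and without the third scramble array it was 28 of 32. The median includes CXCL6 and CSF3. CCL5, CD83 and TNFRSF9 did not pass. Over all 12 SUM149PT arrays, 28 members were lower on every one of the 6 shRNA-experiment arrays than on any of the 6 inhibitor-experiment arrays, and 9.42 percent of all genes were. CXCL6 and CSF3, which passed the filter only through the inhibitor-experiment arrays, are among the 28. The largest adjusted p among the 29 was 0.0406. Over 14127 genes the scramble mean correlated at r = 0.977 with SUM149PT DMSO, at 0.786 with HS578T DMSO and at 0.846 with SUM159PT DMSO, a description over genes of the same arrays. Even so 4693 of those genes passed between scramble and SUM149PT DMSO. Mesenchymal markers went both ways by value. CDH11 averaged 28.8 ± 3.40 in scramble cells and 1781 ± 65.8 in DMSO cells, while VIM averaged 11128 ± 549 in scramble cells and 9516 ± 537 in DMSO cells. COL6A3 and TWIST1 were also higher in scramble cells on average, and the other markers of that list were lower. Infection, puromycin selection, vehicle and the experiment itself all separate these groups and cannot be told apart. The comparison shares its DMSO arrays with those between lines.

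The differences were unequal between close relatives among the chemokines. CXCL3 gave 646, 767 and 1056 in scramble cells, against 20924, 21268 and 25164 in DMSO cells (-4.77 ± 0.17, adjusted p = 2.26e-15). CXCL1 gave 8811, 9234 and 11991 in scramble cells, against 30196, 34437 and 29654 in DMSO cells (-1.66 ± 0.14, adjusted p = 5.16e-09). The mean signal in DMSO cells was 27.3 times that in scramble cells for CXCL3 but 3.14 times for CXCL1, whose upstream sequence is nearly the same. CXCL2 lay between, with 1284 ± 191 in scramble cells and 9049 ± 137 in DMSO cells (-2.81 ± 0.15). CXCL6 had 9.94 ± 9.67 in scramble cells, against 244 ± 19.5 in DMSO cells (-3.39 ± 0.29), and CXCL5 had 12.1 ± 6.96 in scramble cells and 124 ± 16.3 in DMSO cells. CXCL8 had 3808, 4014 and 7752 in scramble cells, against 23019, 24179 and 23459 in DMSO cells (-2.26 ± 0.19, adjusted p = 4.05e-09). Its second probe set differed by -4.87 ± 0.32, in the same direction and more steeply. The highest CXCL8 value of the scramble group came from the third array.

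CSF3 passed the filter only through the inhibitor experiment, so its difference had to exist. It had 14.0, 9.08 and 28.8 in scramble cells, against 1283, 1240.0 and 1263 in DMSO cells (-5.31 ± 0.26). This was the largest difference by value, but the scramble signals lay near the offset, which sets its size in part. IL1A had 314, 271 and 291 in scramble cells, against 4299.7, 4623 and 4813 in DMSO cells (-3.90 ± 0.19, adjusted p = 5.38e-13), and IL1B had 642, 799.7 and 789 in scramble cells, against 8707, 10248 and 9703 in DMSO cells (-3.66 ± 0.18, adjusted p = 5.38e-13). The groups did not overlap for any of the 3, and 20.4 percent of all genes were lower without overlap. A second IL1A probe set gave -0.47 ± 0.29 (adjusted p = 0.245) and did not pass. CCL20 averaged 3223 ± 1215 in scramble cells and 18842 ± 1965 in DMSO cells (-2.60 ± 0.16), IL6 254 ± 41.1 in scramble cells and 1256 ± 107 in DMSO cells (-2.24 ± 0.14), and LCN2 4368 ± 753 in scramble cells and 15039.7 ± 1086 in DMSO cells (-1.79 ± 0.28). TNF (-2.09 ± 0.20), IL24 (-2.29 ± 0.20), LIF (-1.71 ± 0.28), IL11 (-1.22 ± 0.15), TSLP (-0.72 ± 0.16) and CXCL16 (-0.85 ± 0.22) were also lower in scramble cells, the largest adjusted p being 0.00444. By value CSF1 differed least among the secreted members that passed (-0.36 ± 0.13, adjusted p = 0.0406).

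Feedback genes were lower too, by a median of -0.86 over the 8 tested. TNFAIP3 had 564, 660.1 and 638 in scramble cells, against 3242, 3338 and 3122 in DMSO cells (-2.35 ± 0.14, adjusted p = 2.64e-11). NFKBIA had 5239, 4813 and 4103 in scramble cells, against 8089.9, 7596 and 6368 in DMSO cells (-0.64 ± 0.11, adjusted p = 0.000157). By value the inhibitor gene NFKBIA differed less than TNFAIP3 or NFKBIZ (-2.39 ± 0.15). IRAK2 (-1.96 ± 0.16), RELB (-0.90 ± 0.16), NFKB1 (-0.81 ± 0.09), NFKB2 (-0.78 ± 0.26, adjusted p = 0.0232) and TNFAIP2 (-0.64 ± 0.20, adjusted p = 0.0148) passed, as did the enzymes PTGS2 (-1.80 ± 0.17) and SOD2 (-0.99 ± 0.16) and the adhesion gene ICAM1 (-0.81 ± 0.22). NFKB2 lost its call without the third scramble array (-0.70, adjusted p = 0.0778). Of 20 further targets 14 were lower and 0 higher, led by PLAU (-3.02 ± 0.10), BCL2A1 (-5.70 ± 0.21), MMP9 (-3.33 ± 0.15) and TNIP1 (-1.37 ± 0.09). BCL2A1 passed the filter only through the inhibitor-experiment arrays, so its difference had to exist. It averaged 14.2 in scramble cells, so the size depends in part on the offset. Of 22 receptors and kinases, against 15.5 percent lower and 17.8 percent higher over all genes, 5 were lower, led by TLR2 (-1.73 ± 0.23), and 2 higher. Of 7 tested leukocyte markers 3 were lower, CD14 (-2.37 ± 0.28), CORO1A (-1.64 ± 0.22) and LAPTM5 (-0.99 ± 0.19), and the summed signal of the 10 measured was 715 to 815 in scramble cells and 1852 to 2008 in DMSO cells. PTPRC averaged 11.6 in scramble cells and 11.4 in DMSO cells. Epithelial markers summed to 51321 to 57548 in scramble cells and 57475 to 60101 in DMSO cells, and mesenchymal markers to 28192 to 29016 in scramble cells and 38536 to 42145 in DMSO cells. Their part in the members' differences was not tested.

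A few members were lower in MCT1 shRNA cells. Against scramble, 5 of 32 tested members were lower and 0 higher, where 7.72 percent of all tested genes were lower and 7.29 percent higher. The 5 were CXCL8, CCL20, IL1B, TNFAIP2 and CD83, and the median over the 32 was -0.10, against -0.00 over all genes. Fold changes ranged from -0.92 for CD83 to 0.76 for TNFRSF9. Without the third scramble array, CD83 and IL1B still passed and the other 3 did not. Centring arrays on their medians took the median gene from -0.00 to -0.12. The centring also turned the split of all called genes from 1030 higher and 1090 lower into 400 higher and 1331 lower. It left the members at 0 higher.

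CD83 gave the clearest difference. Its signals were 144, 165 and 126 in MCT1 shRNA cells, against 284, 296 and 280.2 in scramble cells, and the groups did not overlap (-0.92 ± 0.12, adjusted p = 7.76e-06, 95% interval -1.16 to -0.67). Without the third scramble array it was -0.93, adjusted p = 3.49e-05. All 3 MCT1 shRNA arrays were below every other array of the series for this gene. IL1B had 425, 469.5 and 488 in MCT1 shRNA cells, against 642, 799.7 and 789 in scramble cells, without overlap (-0.67 ± 0.18, adjusted p = 0.0135). A second IL1B probe set gave -0.48 ± 0.16 (adjusted p = 0.0495), and without the third scramble array the value was -0.62, adjusted p = 0.0477.

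For CXCL8, CCL20 and TNFAIP2 the third scramble array, with the high actin ratio, was the highest of its group. CXCL8 had 2997, 2588 and 3152 in MCT1 shRNA cells, against 3808, 4014 and 7752 in scramble cells (-0.76 ± 0.19, adjusted p = 0.00837). Without that array it was -0.43, adjusted p = 0.0583. The second CXCL8 probe set ran the other way, with 831, 797 and 737 in MCT1 shRNA cells, against 690.4, 886 and 167 in scramble cells, a difference of 0.72 ± 0.32 (adjusted p = 0.154). The third scramble array was the lowest of its group here and the highest on the main probe set, and the probe sets gave opposite signs. CCL20 had 1756, 2299 and 2222 in MCT1 shRNA cells, against 2485, 2558 and 4626 in scramble cells (-0.57 ± 0.16, adjusted p = 0.0182; -0.28, adjusted p = 0.129 without the third scramble array). TNFAIP2 had 657, 679.8 and 669 in MCT1 shRNA cells, against 900.4, 908 and 1455 in scramble cells (-0.65 ± 0.20, adjusted p = 0.0259; -0.43, adjusted p = 0.172 without it). In both, the groups did not overlap with or without that array, which 15.3 percent of all genes showed in this direction over all 6 arrays.

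The other 27 tested members did not pass. IL1A had 330.3, 394 and 476 in MCT1 shRNA cells, against 314, 271 and 291 in scramble cells (0.42 ± 0.19, adjusted p = 0.152), so the pair of interleukin-1 genes had opposite signs by value. TNFRSF9 had 58.4, 28.3 and 45.4 in MCT1 shRNA cells, against 18.3, 16.6 and 21.5 in scramble cells (0.76 ± 0.36, adjusted p = 0.180), and NFKB2 had 153, 94.7 and 131 in MCT1 shRNA cells, against 63.4, 99.8 and 64.7 in scramble cells (0.63 ± 0.26, adjusted p = 0.108). Neither passed. The intervals of NFKBIA (-0.28 to 0.20), TNFAIP3 (-0.38 to 0.22), NFKBIZ (-0.35 to 0.26) and IL6 (-0.22 to 0.35) bound their differences to well under a 2-fold change, and 24 of the 32 members had intervals within a 2-fold change either way. CXCL1 had 8372, 8529 and 8727 in MCT1 shRNA cells, against 8811, 9234 and 11991 in scramble cells (-0.22 ± 0.14, adjusted p = 0.348), and CXCL3 had 617, 759.8 and 766 in MCT1 shRNA cells, against 646, 767 and 1056 in scramble cells (-0.18 ± 0.17). Of 20 further targets 1 was called, PLAU, higher (0.39 ± 0.10). Of 22 receptors and kinases 1 was called, TLR3, higher (0.56 ± 0.17), and of 16 ligand receptors 2, IL6R (1.29 ± 0.25) and IL20RB (0.49 ± 0.09), both higher. Of 8 AP-1 genes FOSL1 (-0.79 ± 0.10) and JUNB (-0.63 ± 0.16) were lower and JUN (0.24 ± 0.08) higher, and of 10 glucocorticoid-induced genes ERRFI1, DUSP1 and TSC22D3 were higher (0.89 ± 0.06, 0.62 ± 0.09 and 0.71 ± 0.11). The leukocyte marker CORO1A was lower (-0.91 ± 0.22), 1 of 7 tested in its list, which summed to 605 to 708 in MCT1 shRNA cells and 715 to 815 in scramble cells. Epithelial markers summed to 66965 to 71878 in MCT1 shRNA cells and 51321 to 57548 in scramble cells, without overlap, and 2 of 10, KRT19 (1.09 ± 0.10) and KRT8 (0.64 ± 0.17), were higher. Mesenchymal markers summed to 25408 to 30803 in MCT1 shRNA cells and 28192 to 29016 in scramble cells, and 1 of 11, SPARC (1.22 ± 0.23), was higher. Their part in the members' differences was not tested.

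**Figure D3:**
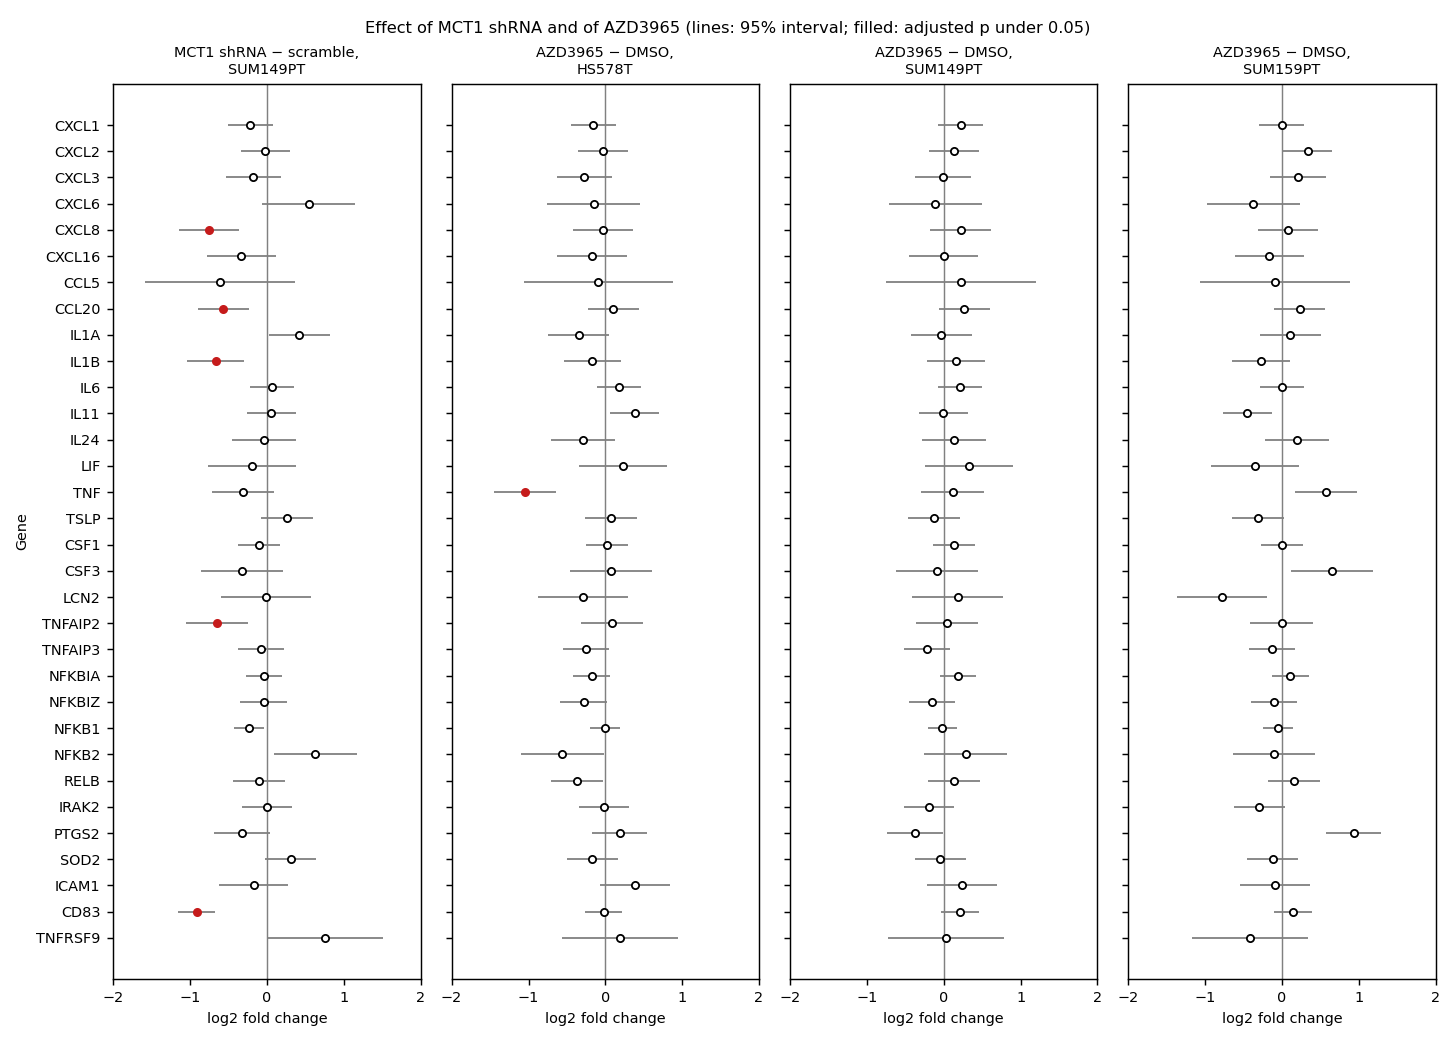
Log2 fold changes of the 32 tested members for MCT1 shRNA minus scramble in SUM149PT and for AZD3965 minus DMSO in each line, with 95% intervals as lines and filled points where the adjusted p was under 0.05. There are 5 filled points for the shRNA, all below 0, 1 for AZD3965 in HS578T (TNF) and 0 in SUM149PT and SUM159PT.

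AZD3965 for 24 hours gave few differences in the set. In HS578T 1 member of 32, TNF, was lower and 0 were higher, where 0.0991 percent of all genes were lower and 0.212 percent higher. In SUM149PT 0 members were called by limma at a background of 0.0283 percent, and in SUM159PT 0 members at a background of 0 percent. At an unadjusted p under 0.05 the counts were 4, 1 and 6 members in HS578T, SUM149PT and SUM159PT, and 4 in the average over lines. The share of all genes at that unadjusted threshold was not counted, so nothing is read from these counts. In the average over lines 0 members passed at a background of 0.0283 percent, and the 95% intervals of all 32 lay within a 2-fold change. In SUM149PT 31 of 32 intervals lay within a 2-fold change as well, the exception being CCL5 (-0.74 to 1.20).

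TNF in HS578T had 8.20, 10.1 and 20.0 in AZD3965 cells, against 34.8, 56.0 and 38.4 in DMSO cells. The groups did not overlap (-1.04 ± 0.20, adjusted p = 0.0152), and 10.9 percent of all genes were lower without overlap in this comparison. The values lay near the offset of 16, and the call was lost with median centring, an offset of 64, a filter at the 60th percentile, a fit of these 6 arrays alone or the replicate number as a block. In SUM149PT TNF had 595, 581 and 626 in AZD3965 cells, against 489.9, 552 and 626 in DMSO cells (0.11 ± 0.20). In SUM159PT it had 27.5, 36.2 and 33.6 in AZD3965 cells, against 13.0, 14.5 and 23.0 in DMSO cells (0.57 ± 0.20, adjusted p = 0.721). The F test of whether its AZD3965 effect differed between lines gave an adjusted p of 0.0317, at a background of 0.120 percent, and TNF was the 1 member past it. With median centring, an offset of 64, no filter, the filter at the 60th percentile, only the arrays compared or the replicate block, 0 members passed this F test.

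PTGS2 came nearest among the members that did not pass. In SUM159PT it had 26.2, 38.3 and 35.4 in AZD3965 cells, against 17.1, 9.47 and 4.10 in DMSO cells (0.93 ± 0.17, adjusted p = 0.0715). In SUM149PT it had 2258, 1937 and 1972 in AZD3965 cells, against 3065, 2434 and 2534 in DMSO cells (-0.37 ± 0.17, adjusted p = 0.278), and in HS578T 48.7, 51.3 and 68.2 in AZD3965 cells, against 42.2, 54.8 and 44.8 in DMSO cells (0.18 ± 0.17, adjusted p = 0.873). Groups did not overlap in SUM149PT, where PTGS2 was lower as 8.38 percent of all genes were, nor in SUM159PT, where it was higher as 6.21 percent were. The F test for PTGS2 gave an adjusted p of 0.0676. LCN2 in SUM159PT had 7.15, 36.8 and 4.30 in AZD3965 cells, against 24.7, 19.8 and 70.3 in DMSO cells (-0.78 ± 0.28, adjusted p = 0.725), with overlap.

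In SUM149PT no chemokine passed under the inhibitor, and fold changes of the 32 members ranged from -0.37 to 0.32. CXCL1 had 32668, 38606 and 38857 in AZD3965 cells, against 30196, 34437 and 29654 in DMSO cells (0.22 ± 0.14, adjusted p = 0.444). CXCL8 had 25473, 31228 and 25928 in AZD3965 cells, against 23019, 24179 and 23459 in DMSO cells (0.22 ± 0.19, adjusted p = 0.600), and CCL20 had 21165, 23695 and 23083 in AZD3965 cells, against 18283, 21025 and 17216 in DMSO cells (0.27 ± 0.16, adjusted p = 0.412). All 3 were slightly higher on average. CXCL3 had 23277, 23576 and 20116 in AZD3965 cells, against 20924, 21268 and 25164 in DMSO cells (-0.01 ± 0.17), IL1B 10562, 10815 and 10563 in AZD3965 cells, against 8707, 10248 and 9703 in DMSO cells (0.16 ± 0.18), and CD83 359, 348 and 412 in AZD3965 cells, against 322, 302 and 335 in DMSO cells (0.21 ± 0.12, adjusted p = 0.374). In HS578T, IL6 had 1281, 1448 and 1537 in AZD3965 cells, against 1373, 1188 and 1201 in DMSO cells (0.18 ± 0.14), and IL11 1176, 971 and 1087 in AZD3965 cells, against 750.0, 926 and 791 in DMSO cells (0.39 ± 0.15, adjusted p = 0.445). In SUM159PT, IL11 went the other way by value, with 26.3, 39.2 and 31.1 in AZD3965 cells, against 54.0, 41.9 and 53.1 in DMSO cells (-0.45 ± 0.15, adjusted p = 0.721), and CCL20 had 940.2, 982 and 948 in AZD3965 cells, against 823, 777 and 839 in DMSO cells (0.23 ± 0.16). The range over members was -1.04 to 0.39 in HS578T and -0.78 to 0.93 in SUM159PT. Feedback genes in SUM149PT gave 0.19 ± 0.11 for NFKBIA, -0.22 ± 0.14 for TNFAIP3 and -0.15 ± 0.15 for NFKBIZ. Of 20 further targets, 1 passed in the average over lines, IER3, which was higher (0.29 ± 0.05, adjusted p = 0.0252).

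The 2 ways of acting on MCT1 differed for 4 members in SUM149PT. The MCT1 shRNA effect minus the AZD3965 effect was below 0 for CD83 (-1.13 ± 0.17, adjusted p = 0.000117), CXCL8 (-0.98 ± 0.27, adjusted p = 0.0231), CCL20 (-0.84 ± 0.23, adjusted p = 0.0214) and IL1B (-0.83 ± 0.25, adjusted p = 0.0417), where 4.96 percent of all genes were lower and 4.64 percent higher by this test. Only 1 of the 4, CD83, passed with quantile normalization. With an offset of 1, CD83 and CXCL8 passed, and with only the arrays compared, CD83 and IL1B. Without the third scramble array CD83, CXCL8 and CCL20 still passed and IL1B did not (-0.78, adjusted p = 0.0789). The second CXCL8 probe set gave 0.56 ± 0.45 with the opposite sign. This difference uses the same scramble and DMSO arrays as the comparisons above. The manner of acting on MCT1, its duration, the viral selection and the starting level of these genes differed together between the experiments and cannot be told apart.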

How the data were processed

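Array intensities were summarised with MAS5, per the submitters' processing notes, and deposited by the authors as linear signals for 54675 probe sets on 24 arrays, with a 2% trimmed mean near 500.1 on each array. Of these probe sets, 41097 had 1 gene symbol, 1801 several and 11777 none in the platform annotation, and those with several were not used. The probe set of highest mean over 24 arrays was kept for each gene, which left 19775 genes. Signals were transformed as log2(signal + 16), and 14127 genes were tested, those whose mean reached 5.58, the 40th percentile over probe sets. The model was fitted with limma 3.58.1 in R 4.3.3, with 8 group means, 16 residual degrees of freedom, a trended prior worth 6.48 degrees of freedom and Benjamini-Hochberg adjustment over all 14127 genes at 0.05. Errors after ± are standard errors for log2 values and SDs of 3 arrays for signals. The steps were tested on simulated data with known changes.

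The 35 measured members are described by their signals, and those past the threshold are named with their log2 difference. For other lists, up to 4 genes of smallest p per list and comparison are named where values are given in full, and REL was chosen after its values were seen. The members and lists were chosen with earlier results of these data known. Replicate numbers did not pair samples: none of 12 same-numbered pairs correlated above 0.1 in their deviations (r from -0.13 to 0.08). No 2 arrays held identical values. Alternatives were quantile normalization, median centring, offsets of 1 and 64, no filter or a stricter filter, the mean of probe sets, only the arrays compared, a replicate block and leaving out each array. The other probe sets of members and the comparison of scramble with DMSO were added after seeing the data.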

Additional observations from a re-analysis of the deposited data

Results flagged for a closer look

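The response of TNF to AZD3965 differed between lines by the F test (adjusted p = 0.0317). It was -1.04 ± 0.20 in HS578T, 0.11 ± 0.20 in SUM149PT and 0.57 ± 0.20 in SUM159PT, for AZD3965 minus DMSO on the log2(signal + 16) scale with n = 3 arrays per group. TNF was lower on all 3 AZD3965 arrays than on any DMSO array in HS578T and higher on all 3 in SUM159PT, at signals near the offset in both lines. No member passed the F test with median centring, an offset of 64, no filter, a filter at the 60th percentile, only the arrays compared or the replicate block.

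In SUM149PT, the MCT1 shRNA effect and the AZD3965 effect differed for 4 members in limma, each by a test of the difference itself. The shRNA effect minus the AZD3965 effect was -1.13 ± 0.17 for CD83, -0.98 ± 0.27 for CXCL8, -0.84 ± 0.23 for CCL20 and -0.83 ± 0.25 for IL1B. With quantile normalization 1 of the 4 passed, CD83, and 2 passed with an offset of 1 and with only the arrays compared. Each of the 4 was lower under MCT1 shRNA than under scramble and slightly higher on average under AZD3965 than under DMSO. For CXCL8 and CCL20, the third scramble array, with an actin 3′ to 5′ ratio of 53.8, was the highest of its group, and its part in the difference was measured by leaving it out: -0.65, adjusted p = 0.0424 for CXCL8 and -0.55, adjusted p = 0.0310 for CCL20.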

How the results depend on the processing

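For single members, 1633 alternative values of 112 calls were computed, of which 1534 kept their direction and call, 96 lost the call and 3 reversed. The reversals came from other probe sets: 211506_s_at of CXCL8 gave 0.72 for MCT1 shRNA minus scramble and 0.56 for the shRNA effect minus the AZD3965 effect, and 231699_at of NFKBIA gave 0.022 for HS578T minus SUM159PT. Of the counts between lines and for scramble minus DMSO, all stayed within 1.5 times their main value under the settings run.

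The treatment counts were less stable. Genes called for AZD3965 in SUM159PT went to 1 with quantile normalization, 1 with median centring, 10 with an offset of 1 and 2 with a filter at the 60th percentile, and its members to 1 with an offset of 1. In HS578T the 1 member went to 0 with median centring, an offset of 64, the filter at the 60th percentile, only the arrays compared and the replicate block, and 44 genes to 26 with the mean of probe sets and 8 with the block. In SUM149PT 4 genes went to 2 with the mean of probe sets and 0 with only the arrays compared. In the average over lines 4 genes went to 1 with median centring, 8 with an offset of 1, 10 with only the arrays compared and 1 with the block. For the difference between lines, 1 member went to 2 with an offset of 1 and to 0 with median centring, an offset of 64, no filter, the filter at the 60th percentile, only the arrays compared and the block, and 17 genes went to 27 with an offset of 1, 10 with the mean of probe sets, 9 with only the arrays compared and 1 with the block. For MCT1 shRNA 5 members went to 3 with the mean of probe sets and 2 with only the arrays compared, and 2120 genes to 864 with only the arrays compared. The block gave 5 members and 1696 genes. For the shRNA effect minus the AZD3965 effect, 4 members went to 1 with quantile normalization, 2 with an offset of 1 and 2 with only the arrays compared, and 1356 genes to 517 with median centring, 854 with the mean of probe sets and 763 with only the arrays compared. The cause was not tested. Median centring took the median gene from -0.02 to 0.14 for AZD3965 in HS578T. For scramble minus DMSO it turned the split from 2509 higher and 2184 lower into 2599 higher and 1327 lower.

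Leaving out 1 array at a time gave 3 to 46 genes and 0 to 2 members for the difference between lines, 0 to 71 genes and 0 members for the average, 15 to 33 genes and 0 to 1 members in HS578T, 2 to 652 genes and 0 members in SUM149PT, and 0 to 4 genes and 0 to 1 members in SUM159PT. For MCT1 shRNA it gave 1550 to 2306 genes and 2 to 6 members, and for the shRNA effect minus the AZD3965 effect 878 to 1778 genes and 1 to 4 members. No paired analysis was possible for the comparisons between lines and of scramble with DMSO because replicate numbers are nested within line and experiment. The number of arrays limits the precision, and signals near the offset of 16 carry little information on size.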

Other observations

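Of the members with more than 1 probe set, 11 had another tested set, 12 sets in all. These agreed in sign with the main set for 12 of 12 in scramble minus DMSO and 11 of 12 in each comparison of lines, but for 6 of 12 in MCT1 shRNA minus scramble. None of the opposite signs had both sets past the threshold.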
